A study of Rattus norvegicus with 6 samples.

Results

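The 4 long noncoding RNAs (lncRNAs) described here, NONRATT024184.2, NONRATT006369.2, NONRATT021202.2 and NONRATT019034.2, are the lowered lncRNAs of a qRT-PCR panel in INS-1 cells, with LEGLTBC (NONRATT003679.2) set aside. They are 4 of the 18649 lncRNAs listed in the RNA-Seq data. The study drew this panel from lncRNAs that differed between the same 6 RNA-Seq samples, so the 4 lncRNAs were selected on the values given here. Their levels and fold changes are therefore a description, given without a test. The qRT-PCR measurements were not analysed here.

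INS-1 cells come from a rat insulinoma, secrete insulin and stand in for pancreatic beta cells in culture, and the samples are labelled as Wistar. RNA-Seq was performed on 3 samples of control INS-1 cells (Con 1, 2 and 3). The study's methods name an RPMI growth medium for INS-1 cells and do not describe the medium of the controls separately. The other 3 samples were INS-1 cells exposed for 24 h to 25 mM glucose together with 0.5 mM palmitate (HG/PA 1, 2 and 3). No sample had high glucose or palmitate alone, so their effects cannot be told apart. The study speaks of a biological triplicate, while the labels do not say whether the samples came from separate cultures, so p-values measure the spread between these samples, which may be technical. The level of each lncRNA was given as FPKM, the fragments per kilobase of transcript length and unit of sequencing depth, and the steps between FPKM values implied totals from 12491755 fragments (Con 2) to 13770572 fragments (Con 1), with 12657207 to 13688913 in the HG/PA samples.

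lncRNAs are transcripts with little or no coding capacity. Some act in the nucleus on chromatin or on transcription near their own locus, and others act in the cytoplasm by binding proteins or microRNAs. In beta cells, long exposure to high glucose with a saturated fatty acid such as palmitate, termed glucolipotoxicity, impairs insulin secretion and promotes oxidative stress and apoptosis.

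The 4 lncRNAs lie on different chromosomes, and all positions are in the rat build Rnor_6.0. NONRATT024184.2 (chr6:48450847-48658080) is a spliced transcript of 473 nt whose exons are spread over 207234 nt, so that 206761 nt of the locus are intron. Its span is at the percentile 99.6 of the listed lncRNAs, whose median span is 1459 nt. NONRATT006369.2 (chr10:109817300-109818071) is unspliced and 772 nt long. NONRATT021202.2 (chr4:27778687-27779357) is unspliced as well and has a length of 671 nt. NONRATT019034.2 (chr3:2570721-2571597) has a length of 721 nt and 156 nt of intron. Of all listed lncRNAs, 45.9% are unspliced. Their median length is 663 nt, and the lengths of the 4 are at the percentiles 28.1 for NONRATT024184.2, 65.7 for NONRATT006369.2, 51.0 for NONRATT021202.2 and 57.7 for NONRATT019034.2. The strand is not given in the files, and gene names were not taken for these identifiers.

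NONRATT019034.2 had the highest level of the 4. Its FPKM was 26.6, 30.0 and 22.8 in Con 1, 2 and 3 and 6.03, 7.5 and 7.78 in HG/PA 1, 2 and 3. All 3 HG/PA samples lay below all 3 Con samples, and the lowest Con sample was 2.93 times the highest HG/PA sample. Behind these values stood 264, 270 and 206 fragments for Con and 55, 74 and 74 for HG/PA. Group means were 26.5 ± 3.59 FPKM (SD, n = 3) for Con and 7.1 ± 0.942 FPKM (SD, n = 3) for HG/PA. Pooled over the 3 samples of a group, the fragment rate in HG/PA was 26.9% of that in Con (exact conditional 95% interval 22.9 to 31.5). This interval, like all intervals and floors given here, covers counting error only.

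NONRATT006369.2 was second in level. Its FPKM was 7.71, 7.67 and 5.69 in Con 1, 2 and 3 and 1.33, 1.23 and 1.28 in HG/PA 1, 2 and 3. The groups did not overlap, and Con 3 was the low sample of its group. There were 82, 74 and 55 fragments for Con 1, 2 and 3, and each HG/PA sample had 13. The HG/PA samples were thus alike to within less than counting error, with a mean FPKM of 1.28 ± 0.0502 (SD, n = 3) against 7.02 ± 1.16 (SD, n = 3) in Con. The pooled fragment rate of NONRATT006369.2 in HG/PA was 18.1% of that in Con (95% interval 12.5 to 25.6).

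NONRATT024184.2, the transcript with the long span, had an FPKM of 4.15, 6.94 and 5.23 in Con 1, 2 and 3 and of 0.668, 0.927 and 1.12 in HG/PA 1, 2 and 3. Con 2 was the highest sample, and every HG/PA sample lay below Con 1, the lowest of its group. The Con values rest on 27, 41 and 31 fragments, and the HG/PA values on 4, 6 and 7. The HG/PA counts have exact Poisson 95% intervals of 1.09 to 10.2, 2.2 to 13.1 and 2.81 to 14.4 fragments, which overlap, so differences among these 3 samples were not detectable at this depth. The Con mean was 5.44 ± 1.41 FPKM (SD, n = 3), and the HG/PA mean was 0.906 ± 0.228 FPKM (SD, n = 3). The pooled fragment rate in HG/PA was 16.8% of that in Con (95% interval 9.44 to 28.4).

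NONRATT021202.2 had the lowest mean level. Its FPKM was 3.14, 4.18 and 3.69 in Con 1, 2 and 3 and 0.589, 0.871 and 0.678 in HG/PA 1, 2 and 3. Again no HG/PA sample reached the lowest Con sample, which was 3.6 times the highest HG/PA sample. Only 5, 8 and 6 fragments stood behind the HG/PA values, against 29, 35 and 31 behind the Con values. A level of 3 fragments would correspond to an FPKM of 0.325 to 0.358 for this lncRNA, depending on the sample, so all HG/PA values were above that floor. Means were 3.67 ± 0.519 (SD, n = 3) FPKM in Con and 0.713 ± 0.144 (SD, n = 3) FPKM in HG/PA, and the pooled rate in HG/PA was 19.6% of that in Con (95% interval 11.3 to 32.4).

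**Figure D1:**
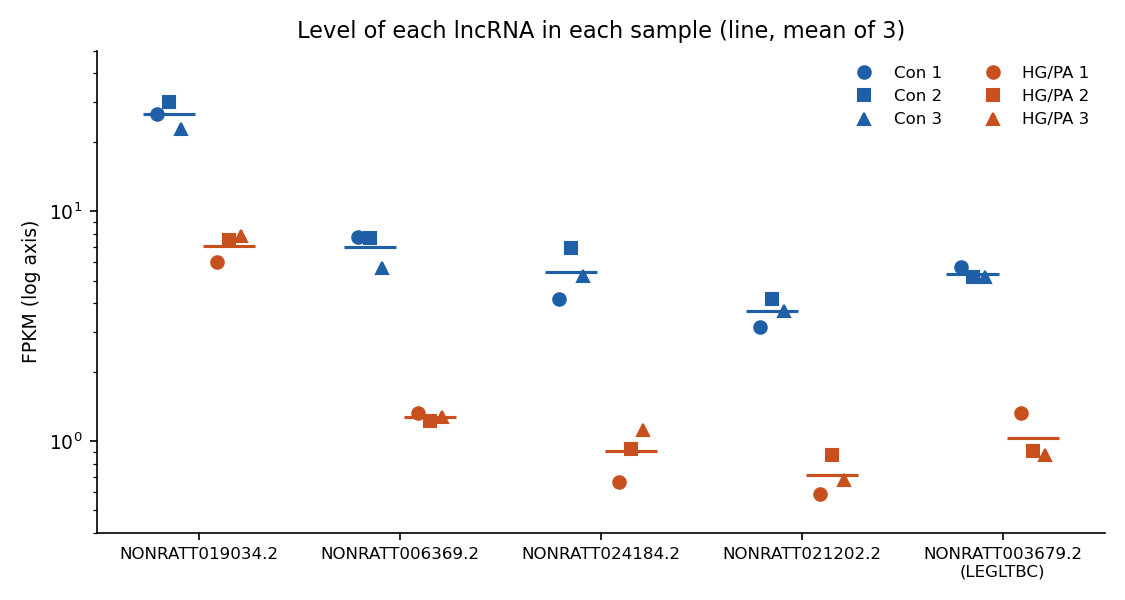
FPKM on a log axis of the 4 lncRNAs and of LEGLTBC in each of the 3 Con (blue) and 3 HG/PA (orange) samples, with lines at the group means. In each lncRNA all HG/PA samples lie below all Con samples, and NONRATT019034.2 stays highest in both groups.

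Set in order of mean FPKM, the 4 lncRNAs ran NONRATT019034.2, NONRATT006369.2, NONRATT024184.2 and NONRATT021202.2 in both groups. NONRATT019034.2 stood clear of the others in every sample. In Con, NONRATT006369.2 (5.69 to 7.71 FPKM) overlapped NONRATT024184.2 (4.15 to 6.94), and the latter overlapped NONRATT021202.2 (3.14 to 4.18), so the ranges of these neighbours in the order were not separate. In HG/PA, NONRATT006369.2 (1.23 to 1.33) lay above NONRATT024184.2 (0.668 to 1.12), which again overlapped NONRATT021202.2 (0.589 to 0.871). Within each of the 6 samples, however, the order of the 4 was the same. Among all listed lncRNAs, the mean level of NONRATT019034.2 was at the percentile 97.6 in Con and 87.8 in HG/PA. The corresponding percentiles were 86.3 and 48.6 for NONRATT006369.2, 81.9 and 39.9 for NONRATT024184.2, and 73.2 and 34.4 for NONRATT021202.2. After HG/PA treatment 3 of the 4 lncRNAs thus stood below the middle of the list, and NONRATT019034.2 remained in its upper part.

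Fold changes were taken on the scale log2(FPKM + 0.1), which makes changes at low FPKM look smaller, over the 17558 lncRNAs that reached an FPKM of 0.1 in 3 or more of the 6 samples. All 4 lncRNAs passed this filter. The log2 fold change, HG/PA minus Con, was -2.46 (SE 0.28) for NONRATT024184.2. For NONRATT006369.2 it was -2.36 (SE 0.19). NONRATT021202.2 had -2.22 (SE 0.25) and NONRATT019034.2 had -1.88 (SE 0.15), so the most abundant of the 4 had the smallest change in fold and, from 26.5 to 7.1, the largest in FPKM. With a pseudocount of 1 this order in fold did not hold, at -1.76 for NONRATT019034.2, -1.74 for NONRATT024184.2, -1.81 for NONRATT006369.2 and -1.44 for NONRATT021202.2. The fold changes of the other 3 at the pseudocount of 0.1 differ by less than the largest of their standard errors, 0.28. The median of all tested lncRNAs was itself at -0.11, and it became 0.01 when samples were rescaled by the median of ratios. Relative to that median, the changes were -2.34, -2.24, -2.1 and -1.77 for NONRATT024184.2, NONRATT006369.2, NONRATT021202.2 and NONRATT019034.2. In bulk RNA from cultures, fewer cells that express a lncRNA and less of its RNA per cell cannot be told apart.

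As the background, limma called 146 of the 17558 tested lncRNAs (0.832%) downregulated and 115 (0.655%) upregulated under HG/PA, with a change of 2-fold or more and a Benjamini-Hochberg adjusted p below 0.05. The 4 lncRNAs are among the 146, at ranks 13, 16, 22 and 40 by log2 fold change for NONRATT024184.2, NONRATT006369.2, NONRATT021202.2 and NONRATT019034.2. Since the panel was chosen by this contrast, nothing is read from that. With the same fold change and an unadjusted p below 0.05, limma called 685 lncRNAs (3.90%) downregulated and 455 (2.59%) upregulated. In 2839 tested lncRNAs (16.2%), the 4 included, every HG/PA sample lay below every Con sample. The number downregulated at the adjusted threshold was 46, 37 and 37 without Con 1, 2 and 3 and 52, 53 and 88 without HG/PA 1, 2 and 3. The number upregulated was 73, 60 and 66 without Con 1, 2 and 3 and 30, 26 and 33 without HG/PA 1, 2 and 3. The direction of the surplus depended on the fit and the scaling, with 84 downregulated and 92 upregulated by limma without a trend, 90 downregulated and 135 upregulated after rescaling by the median of ratios and 91 and 123 after quantile normalization. At the unadjusted threshold the numbers were 471 and 578 after the median of ratios and 499 and 550 after quantile normalization.

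**Figure D2:**
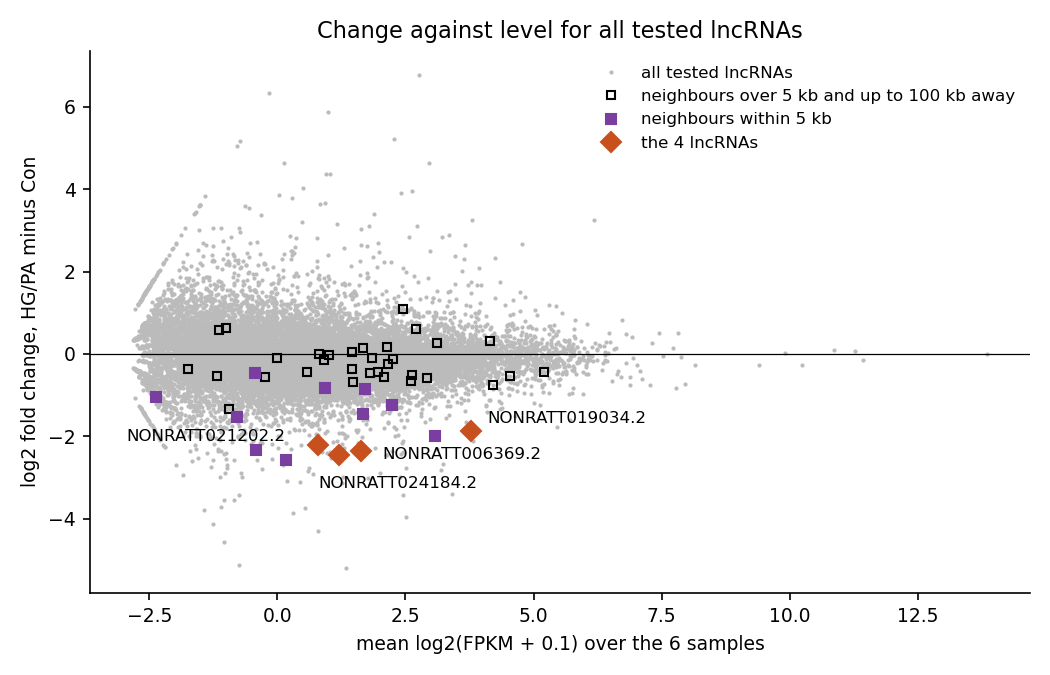
log2 fold change (HG/PA minus Con) against the mean log2(FPKM + 0.1) over the 6 samples for the 17558 tested lncRNAs (grey), the 4 lncRNAs (orange diamonds), their 10 neighbours within 5 kb (filled squares) and the 32 tested neighbours further away up to 100 kb (open squares). The 4 lncRNAs lie between -2.46 and -1.88, and the open squares lie between -1.35 and 1.09.

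LEGLTBC, the remaining lowered lncRNA of the panel, was at 5.36 ± 0.321 FPKM (SD, n = 3) in Con and 1.04 ± 0.255 FPKM (SD, n = 3) in HG/PA. Its log2 fold change was -2.28 (SE 0.22), between those of NONRATT006369.2 and NONRATT021202.2. The pooled HG/PA rate of LEGLTBC was 19.2% of the Con rate (95% interval 13.7 to 26.4), and this interval overlaps those of all 4 lncRNAs.

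The profiles of the 4 over the 6 samples were compared by the root mean square difference of log2(FPKM + 0.1), after each lncRNA was centred on its own mean. Between pairs of the 4 this difference was 0.236 for NONRATT024184.2 and NONRATT021202.2, the closest pair, and 0.353 for NONRATT024184.2 and NONRATT019034.2, the most distant. By the same measure, 11051 other tested lncRNAs with a mean FPKM of at least 1 were searched for the profiles most like each of the 4. For NONRATT021202.2 the nearest were NONRATT008032.2 (0.154) on chromosome 12 and NONRATT015685.2 (0.191) on chromosome 2. The same lncRNAs came first for NONRATT024184.2, at differences of 0.267 and 0.292. NONRATT008032.2 had an FPKM of 10.7, 12.2 and 14.5 in Con 1, 2 and 3 and of 2.04, 2.63 and 2.24 in HG/PA 1, 2 and 3. Its groups did not overlap, and its level was above that of NONRATT021202.2 in every sample. LEGLTBC came first for NONRATT006369.2, at 0.2, followed by NONRATT025757.2 at 0.259, which had only 2 fragments in each HG/PA sample. For NONRATT019034.2 the nearest were NONRATT023334.2 (0.155; 2.45 ± 0.121 FPKM in Con and 0.614 ± 0.064 in HG/PA, SD, n = 3) and NONRATT005082.2 (0.184), the latter with 3 fragments in each HG/PA sample, the floor. The measure is dominated by the step between the groups, on which the 4 were selected, so these lists mainly hold lncRNAs with a step of like size.

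The listed lncRNAs around the 4 were not part of the panel. Within 100 kb of any of the 4 there were 43 other listed lncRNAs, of which 42 passed the filter and were tested. At the adjusted threshold with its 2-fold change, limma called 4 of the 42 (9.52%) downregulated, against 0.832% of all tested lncRNAs, and 0 upregulated. At an unadjusted p below 0.05 it called 5 (11.9%) downregulated, against 3.90% of all tested, and 0 upregulated, and limma-voom on the recovered fragments called 4 downregulated and 0 upregulated at the adjusted threshold. All HG/PA samples lay below all Con samples in 13 of the 42 (31.0%), against 16.2% of all tested lncRNAs. They lay above all Con samples in 2, and the share of all tested lncRNAs that did so was not counted. No contrast between the 13 and the 2 is therefore drawn. The 13 include NONRATT017876.2, in which Con 2, Con 3 and HG/PA 1 held 1 fragment each. The median log2 fold change of the neighbours was -0.46, or -0.35 after subtraction of the median over all tested lncRNAs, and 28 of the 42 lay below that median. The adjusted count was 2 without Con 1 and 0 without Con 2, without Con 3 or without HG/PA 2, and the unadjusted count was 8 without Con 2 and 10 without HG/PA 1. Neighbours that overlap or lie close together can share transcripts and reads, so they are not independent of each other or of the 4.

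**Figure D3:**
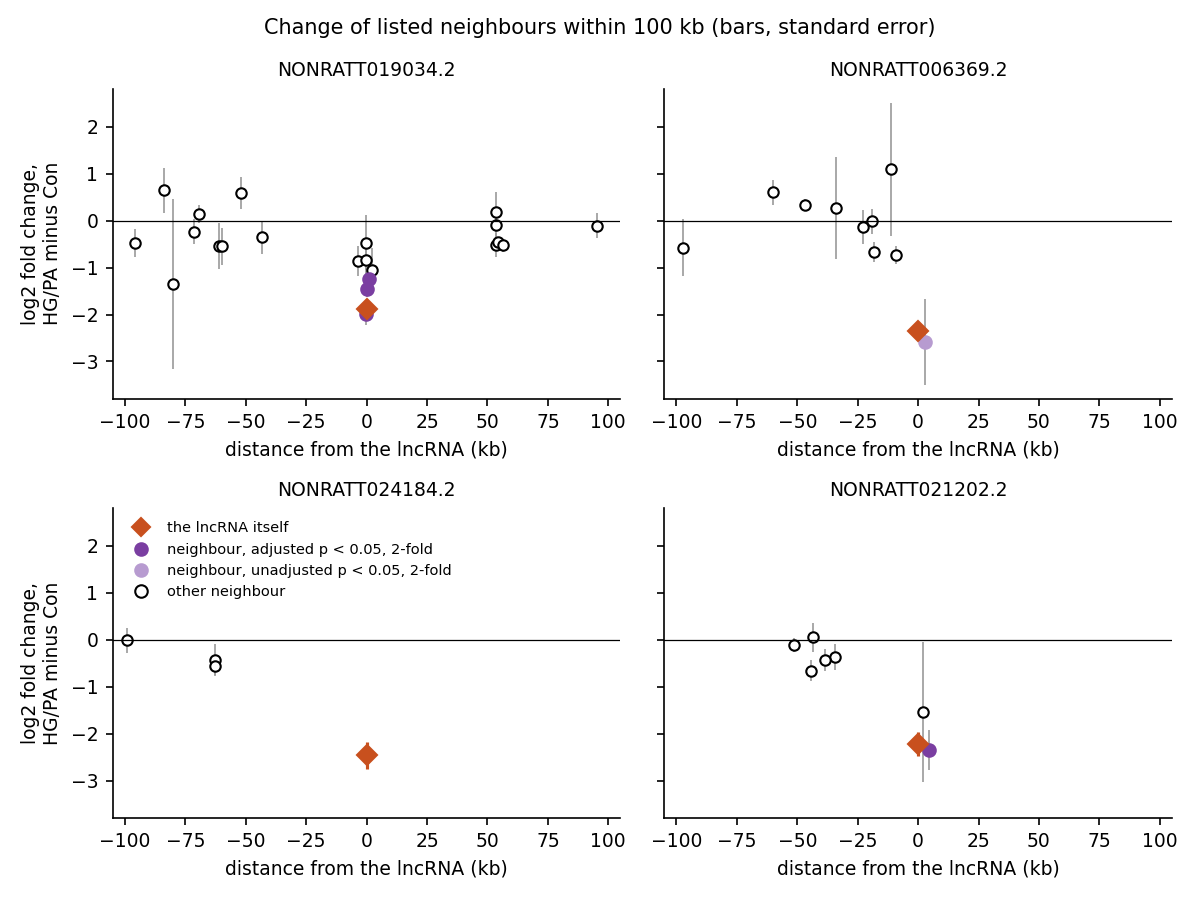
log2 fold change (HG/PA minus Con, bars giving the standard error) of the tested neighbours of each lncRNA against their distance from it in kb, negative at lower coordinates. The 4 neighbours past limma's adjusted threshold (dark) lie within 5 kb of NONRATT019034.2 or NONRATT021202.2, the 1 past the unadjusted threshold alone (pale) lies within 5 kb of NONRATT006369.2, and NONRATT024184.2 has no listed neighbour within 62826 nt.

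All 4 neighbours called at the adjusted threshold lay within 5 kb, a distance chosen after the values were seen. Within it, 10 neighbours were tested, 4 were downregulated at limma's adjusted threshold (40.0%) and 5 at the unadjusted one, and the median log2 fold change was -1.34. Of the 32 tested between 5 and 100 kb, limma called 0 at either threshold and limma-voom called 0 at the adjusted one. Of all tested lncRNAs, 0.832% were downregulated at the adjusted threshold and 3.90% at the unadjusted one, so few calls were to be seen among 32. Nothing is read from the 0 calls. An unadjusted p below 0.05 at any fold change was seen in 7 (21.9%), against 3042 of all tested lncRNAs (17.3%). The median of the 32 was -0.3. For comparison, 136 other lncRNAs downregulated at the adjusted threshold were taken that lie more than 100 kb from the 4 and from LEGLTBC, a limit set after the values were seen. Within 5 kb of these 136, 114 neighbours were tested, of which 10 (8.77%) were downregulated at the adjusted threshold and 28 (24.6%) at the unadjusted one, with a median of -0.45. From 5 to 100 kb around them, 12 of 482 neighbours (2.49%) passed the adjusted threshold and 31 (6.43%) the unadjusted one, with a median of -0.18. The 136 were picked by the same contrast in the same 6 samples, so their counts are no separate support, and whether the neighbours of the 4 differ from theirs was not tested.

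NONRATT019034.2 lies in a chain of listed lncRNAs on chromosome 3, with 7 others within 5 kb and 23 within 100 kb. NONRATT019033.2, 326 nt below it, had an FPKM of 14.0, 16.9 and 19.5 in Con 1, 2 and 3 and of 5.56, 4.24 and 3.01 in HG/PA 1, 2 and 3, from 63, 69 and 80 and from 23, 19 and 13 fragments. The groups did not overlap, and among the lncRNAs within 5 kb the mean level in each group was the highest after NONRATT019034.2 itself, although in HG/PA 3 NONRATT019036.2 was higher, at 3.43 FPKM. Its log2 fold change was -1.98 (SE 0.24, limma Benjamini-Hochberg adjusted p = 0.013, lower in 3 of 3 HG/PA samples). That call was lost without Con 2 (limma Benjamini-Hochberg adjusted p = 0.063), without Con 3 (0.057) and without HG/PA 2 (0.06), and the adjusted p ranged from 0.0083 to 0.096 over the alternatives. The genomic spans of NONRATT019031.2 and NONRATT019032.2 overlap that of NONRATT019033.2, so fragments of NONRATT019033.2 may be divided among these identifiers.

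NONRATT019035.2 overlaps NONRATT019034.2 by 146 nt of genomic span, introns included, so how much exon sequence they share is not known. The FPKM of NONRATT019035.2 was 4.81, 5.41 and 5.39 in Con 1, 2 and 3 and 1.99, 1.64 and 1.91 in HG/PA 1, 2 and 3, with little spread within either group. Its log2 fold change was -1.45 (SE 0.17, limma Benjamini-Hochberg adjusted p = 0.012, lower in 3 of 3 HG/PA samples). This call was lost without Con 2 (limma Benjamini-Hochberg adjusted p = 0.06), Con 3 (0.056) and HG/PA 2 (0.051), in a range of 0.0076 to 0.094 over the alternatives. The libraries were strand-specific per the labels, but the sources used here do not say whether strand entered the quantification, so reads of overlapping or antisense transcripts cannot be told apart.

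NONRATT019036.2, which starts 891 nt above the end of NONRATT019034.2, had an FPKM of 6.29, 7.35 and 8.05 in Con 1, 2 and 3 and of 2.56, 3.02 and 3.43 in HG/PA 1, 2 and 3. The groups again did not overlap. Its log2 fold change was -1.24 (SE 0.17, limma Benjamini-Hochberg adjusted p = 0.021, lower in 3 of 3 HG/PA samples). Of the 6 fits that left out 1 sample, it kept its call in that without HG/PA 3. The limma Benjamini-Hochberg adjusted p was 0.06, 0.086 and 0.075 without Con 1, 2 and 3 and 0.066 and 0.079 without HG/PA 1 and 2, in a range of 0.014 to 0.086 over the alternatives. The other 4 lncRNAs within 5 kb were not called, with log2 fold changes from -1.05 for NONRATT017876.2, which held at most 2 fragments in any sample, to -0.47 for NONRATT019032.2. The 7 lncRNAs together, NONRATT019034.2 left out, held 260, 234 and 260 fragments in Con 1, 2 and 3 and 112, 94 and 92 in HG/PA 1, 2 and 3. The pooled rate of these 7 in HG/PA was 38.8% of that in Con. It was 26.9% for NONRATT019034.2 itself, which was selected for being lower in HG/PA, so the rates are not compared.

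**Figure D4:**
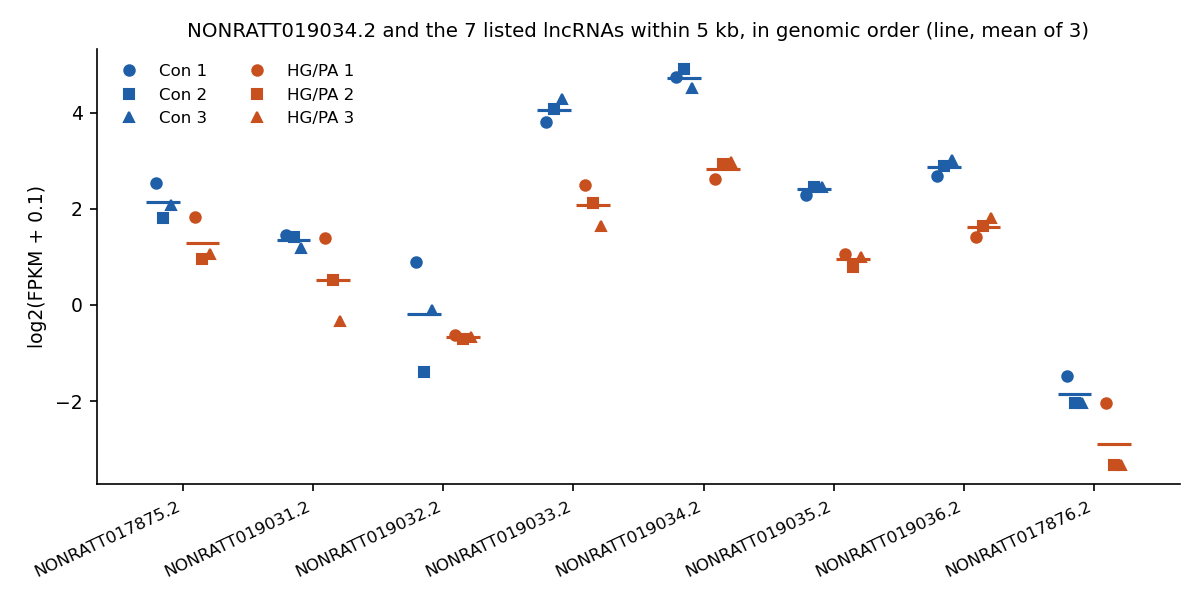
log2(FPKM + 0.1) of NONRATT019034.2 and the 7 listed lncRNAs within 5 kb of it, in genomic order, in the 3 Con (blue) and 3 HG/PA (orange) samples, with lines at the group means. The mean is lower in HG/PA for all 8, and the groups do not overlap in NONRATT019033.2, NONRATT019034.2, NONRATT019035.2, NONRATT019036.2 and NONRATT017876.2, the last with 0 to 2 fragments a sample. Such separation was seen in 16.2% of all tested lncRNAs, and NONRATT019034.2 was selected on this contrast. In NONRATT017876.2, Con 2, Con 3 and HG/PA 1 held 1 fragment each, so its groups are separate in FPKM but tie in fragments.

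Further away on chromosome 3, limma called 0 of the 15 tested neighbours of NONRATT019034.2 between 5 and 100 kb, and limma-voom called 0. Few calls were to be seen among 15, as 0.832% (adjusted) and 3.90% (unadjusted) of all tested lncRNAs were downregulated. Of the 15, 2 had an unadjusted p below 0.05 at any fold change, against 17.3% of all tested lncRNAs. NONRATT017882.2, 54468 nt above, is named after its values were seen, as the only one of these with a limma Benjamini-Hochberg adjusted p below 0.05, which 487 of all tested lncRNAs (2.77%) had at any fold change. It was at 42.6 ± 0.912 FPKM (SD, n = 3) for Con and 31.3 ± 2.09 FPKM (SD, n = 3) for HG/PA, a log2 fold change of -0.45 (SE 0.07, limma Benjamini-Hochberg adjusted p = 0.033), which is under 2-fold.

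NONRATT021202.2 had 7 listed neighbours within 100 kb, all tested. Limma called 1 of them (14.3%) downregulated at the adjusted threshold, against 0.832% of all tested lncRNAs, and limma-voom called 1. An unadjusted p below 0.05 at any fold change was seen in 2, against 17.3% of all tested. The called neighbour, NONRATT021204.2, lies 4551 nt above NONRATT021202.2. Its FPKM was 1.24, 1.83 and 1.73 in Con 1, 2 and 3 and 0.0902, 0.334 and 0.346 in HG/PA 1, 2 and 3. These values rest on 15, 20 and 19 fragments and on 1, 4 and 4, so the HG/PA level is near the floor of 3 fragments. Its log2 fold change was -2.34 (SE 0.43, limma Benjamini-Hochberg adjusted p = 0.045, lower in 3 of 3 HG/PA samples). The call did not hold without any 1 of the 6 samples, with a limma Benjamini-Hochberg adjusted p of 0.12, 0.14 and 0.13 without Con 1, 2 and 3 and of 0.079, 0.1 and 0.089 without HG/PA 1, 2 and 3. Over all alternatives it ranged from 0.028 to 0.14 and stayed under the threshold in 2 of 15. The size of the change also moved with the pseudocount, to a log2 fold change of -1.05 at 1 and of -2.78 at 0.01.

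Between these lncRNAs lies NONRATT021203.2, 2163 nt above NONRATT021202.2, with 0, 87 and 74 fragments in Con 1, 2 and 3 and 8, 26 and 0 in HG/PA 1, 2 and 3. The groups overlapped, with 0 fragments in 1 sample of each, and its log2 fold change of -1.54 (SE 1.49) had a limma Benjamini-Hochberg adjusted p of 0.66. The nearest lncRNA on the other side, NONRATT021199.2 at 34543 nt, was at 3.04 ± 0.517 FPKM (SD, n = 3) in Con and 2.41 ± 0.788 FPKM (SD, n = 3) in HG/PA.

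NONRATT006369.2 had 10 tested neighbours within 100 kb, with a median log2 fold change of -0.08. Limma called 0 of them at the adjusted threshold, where 0.832% of all tested lncRNAs were downregulated, and limma-voom called 0. An unadjusted p below 0.05 at any fold change was seen in 4, against 17.3% of all tested. Past the unadjusted threshold was NONRATT006370.2, 3027 nt above, with an FPKM of 2.8, 1.9 and 3.55 in Con 1, 2 and 3 and of 0.703, 0.0 and 1.12 in HG/PA 1, 2 and 3. The groups did not overlap, but only 13, 8 and 15 fragments stood behind the Con values and 3, 0 and 5 behind the HG/PA values. Its log2 fold change of -2.58 (SE 0.91) had a limma Benjamini-Hochberg adjusted p of 0.21, in a range of 0.1 to 0.39 over the alternatives. The fold change itself depended on the pseudocount and on single samples, with -3.74 at a pseudocount of 0.01, -1.26 at 1, -1.48 without HG/PA 2, the sample with 0 fragments, and -3.29 without HG/PA 3. NONRATT006368.2, the nearest lncRNA on the other side at 9127 nt, was at 23.9 ± 1.11 FPKM (SD, n = 3) in Con and 14.6 ± 3.73 FPKM (SD, n = 3) in HG/PA, with a log2 fold change of -0.74 (SE 0.19, limma Benjamini-Hochberg adjusted p = 0.11).

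Some neighbours of NONRATT006369.2 varied far more within a group than NONRATT006369.2 itself, and they are named after their values were seen. NONRATT006367.2, 11380 nt below, held 128, 161 and 145 fragments in Con 1, 2 and 3 and 21, 969 and 1353 in HG/PA 1, 2 and 3. HG/PA 1 thus lay below all Con samples while HG/PA 2 and 3 lay above them. NONRATT005150.2, 33905 nt below, held 438, 29 and 75 fragments in Con 1, 2 and 3 and 51, 419 and 84 in HG/PA 1, 2 and 3, with Con 1 and HG/PA 2 as the high samples. NONRATT006369.2 did not follow either of them, with 82, 74 and 55 fragments in Con and 13 in each HG/PA sample.

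NONRATT024184.2 had 3 listed lncRNAs within 100 kb, all at lower coordinates. Limma called 0 of the 3 at the adjusted threshold, where 0.832% of all tested lncRNAs were downregulated, and limma-voom called 0. An unadjusted p below 0.05 at any fold change was seen in 1, against 17.3% of all tested. The nearest, NONRATT024951.2 at 62826 nt, had an FPKM of 4.19, 5.97 and 4.99 in Con 1, 2 and 3 and of 3.04, 3.16 and 4.01 in HG/PA 1, 2 and 3. The groups were separate but close, and its log2 fold change of -0.55 (SE 0.2) had a limma Benjamini-Hochberg adjusted p of 0.22. Among all listed lncRNAs, the distance from NONRATT024184.2 to its nearest listed neighbour was at the percentile 87.3.

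The FPKM of all listed neighbours within 100 kb was also summed in each sample and compared by a two-sided exact permutation test, which cannot give a p below 0.1 with 3 against 3 samples. Around NONRATT019034.2 the sum was 130.0, 147.0 and 142.0 in Con 1, 2 and 3 and 96.8, 89.6 and 90.2 in HG/PA 1, 2 and 3, a difference of -47.8 (exact p = 0.1). Around NONRATT021202.2 it was 26.3 ± 1.05 FPKM (SD, n = 3) for Con and 18.5 ± 1.24 FPKM (SD, n = 3) for HG/PA (exact p = 0.1). Both sums were lower in all HG/PA samples than in any Con sample, as was that around NONRATT024184.2, with 8.46 ± 0.156 against 6.26 ± 0.764 (SD, n = 3, exact p = 0.1). How often such sums separate around other lncRNAs was not counted, and 16.2% of single tested lncRNAs separated in this direction. After rescaling by the median of ratios these differences shrank, from -47.8 to -36.9 (NONRATT019034.2), from -7.8 to -5.72 (NONRATT021202.2) and from -2.2 to -1.52 (NONRATT024184.2). Around NONRATT006369.2 the groups overlapped, with 83.3 ± 17.7 FPKM in Con and 88.6 ± 24.5 FPKM in HG/PA (SD, n = 3, exact p = 0.8). The difference there, 5.33, became -4.09 without Con 2 and -7.75 without HG/PA 2. After Benjamini-Hochberg adjustment over the 4 sums, the exact p-values of 0.1 became 0.13, and with 3 against 3 samples none could have passed a threshold of 0.05.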

How the data were processed

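The authors filtered reads with seqtk, mapped them with HISAT2 to Rnor_6.0 and ran StringTie, per the study's methods, and deposited FPKM values per lncRNA and sample, which were used here. limma 3.58.1 in R 4.3.3 (lmFit, eBayes with a trend, no block) was fitted to log2(FPKM + 0.1) for lncRNAs that reached an FPKM of 0.1 in 3 or more of the 6 samples. Benjamini-Hochberg adjustment ran over all tested lncRNAs. The fit was first run on simulated data with the same low spread for every lncRNA and changes only in lncRNAs with more fragments. That run does not cover lncRNAs with few fragments or a wide spread between samples. Other steps used Python 3.11.15, numpy 2.4.6, pandas 2.3.3 and scipy 1.17.1. FPKM times length fell on whole steps, within 0.1 step, for 99.93% or more of values, which gave fragments. Fragments of replicate pairs differed beyond counting noise (chi-square per degree of freedom 7.63 to 10.72, with medians per lncRNA of 0.82 to 0.88), so each sample was counted once. Distance was the gap between genomic spans. Named neighbours were those that overlap, the nearest on each side and those past the unadjusted threshold, and named profiles were the 2 most alike for each of the 4. The members and lists were chosen with earlier results of these data known. Alternatives covered pseudocounts, filters, scaling, the trend, limma-voom, a replicate block, the fold change, the window and leaving out each sample. The gene table for the rat was of another assembly (GRCr8) and matched 0 identifiers, so no name was taken from it. Protein-coding genes, cell type markers included, were not analysed here, so the labelled cell type was not checked.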

Additional observations from a re-analysis of the deposited data

How the results depend on the processing

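The log2 fold change of NONRATT019034.2 stayed between -1.98 and -1.75 over 15 alternatives. A pseudocount of 1 moved those of NONRATT024184.2, NONRATT006369.2 and NONRATT021202.2 to -1.74, -1.81 and -1.44, and leaving out 1 sample gave -2.63 to -2.27, -2.5 to -2.28 and -2.35 to -2.11. Their direction, which the choice of the 4 fixes, says nothing of stability. Of all lncRNAs, those downregulated at the adjusted threshold numbered 84 without a trend, 93 with a pseudocount of 1, 91 with quantile normalization, 90 after rescaling by the median of ratios, 258 at a fold change of 1.5 and 37 to 88 without 1 sample. Those upregulated numbered 64 with a pseudocount of 1 and 26 to 73 without 1 sample. At the unadjusted threshold, downregulated and upregulated lncRNAs numbered 422 and 201 with an FPKM of at least 1, 164 and 108 with a pseudocount of 1, and 1476 and 742 at a fold change of 1.5. Called neighbours within 100 kb numbered 2 without a trend and 0 to 3 without 1 sample at the adjusted threshold, and 9 at a fold change of 1.5 and 4 to 10 without 1 sample at the unadjusted one. With a replicate block, limma called 6 lncRNAs downregulated, 7 upregulated and 0 neighbours at the adjusted threshold. Deviations of same-numbered samples had correlations of -0.017, -0.014 and -0.032, and 0 of 6 samples correlated best with their own number. These values show no sign of pairing by number but cannot exclude that same-numbered samples were handled together. The summed FPKM around NONRATT006369.2 was lower in HG/PA, by -2.14, within 5 kb (chosen after the values were seen), and without 1 sample its difference ranged from -7.75 to 16.6. Around NONRATT024184.2 windows of 5 and 50 kb held no listed lncRNA and gave no sum. The cause of these shifts was not tested. Depth limits NONRATT024184.2 and NONRATT021202.2, and among the named neighbours NONRATT021204.2, NONRATT006370.2, NONRATT019031.2, NONRATT019032.2 and NONRATT017876.2, each with at most 8 fragments in any HG/PA sample.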

Other observations

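Around LEGLTBC, 2 listed lncRNAs lay within 100 kb, and both are given here for comparison with the neighbours of the 4. NONRATT001645.2, 35496 nt above LEGLTBC, was at 27.8 ± 3.83 FPKM (SD, n = 3) in Con and 10.4 ± 0.561 FPKM (SD, n = 3) in HG/PA, with a log2 fold change of -1.41 (SE 0.12, limma Benjamini-Hochberg adjusted p = 0.0049). NONRATT001644.2, 543 nt above, was at 4.67 ± 0.156 and 1.82 ± 0.786 FPKM (SD, n = 3), with a log2 fold change of -1.41 (SE 0.34, limma Benjamini-Hochberg adjusted p = 0.094).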
